A study of Mus musculus with 6 samples.

Results

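Transcript levels of the eIF4F translation initiation complex and its 4E-binding proteins were examined in the dental pulp of the mouse molar. The 10 genes were taken by symbol from a count table of 27506 genes: *Eif4e* and *Eif4e2*, *Eif4g1*, *Eif4g2* and *Eif4g3*, *Eif4a1* and *Eif4a2*, *Eif4b*, and *Eif4ebp1* and *Eif4ebp2*. Dental pulp had been dissected from the mandibular first molars of C57BL/6 mice at P3.5 (3.5 days after birth), giving 3 libraries from *Ror2fl/fl* control mice and 3 from *Osr2-Cre;Ror2fl/fl* (mutant) mice. Both groups carry floxed alleles of *Ror2*, which encodes a receptor of non-canonical Wnt signaling. By the genotype labels only the mutants carry *Osr2-Cre*, so an effect of the Cre transgene cannot be told apart from loss of *Ror2*. The sample titles code control library 1 as WW, the other controls as OW and the mutants as OR, without explaining the codes. They also number controls and mutants in separate series, so other differences between these series cannot be told apart from genotype. *Osr2-Cre* acts in the dental mesenchyme, and other cells of the molar keep an intact *Ror2* gene. Neither the labels nor the methods say how many mice or molars went into a library, and p-values measure only the spread between these samples.

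The eIF4F complex brings capped mRNAs to the ribosome. In it eIF4E binds the cap at the 5′ end of the mRNA, eIF4G is the scaffold that also contacts poly(A)-binding protein and eIF3, and eIF4A is an RNA helicase that unwinds the leader with the help of eIF4B. The 4E-binding proteins hold eIF4E away from eIF4G until mTOR complex 1 phosphorylates them. eIF4B is a substrate of p70S6K, the S6 kinase encoded by *Rps6kb1*, and eIF4E is phosphorylated by the MNK kinases. Since these switches act on proteins, transcript levels give neither the amount nor the activity of each protein. The comparison asked whether transcript levels differed between control and mutant pulp while the roots of the molar begin to form.

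Some members have near-identical processed pseudogenes, and the sequences below show how little separates the copies. *Eif4a1* (chr11:69666936-69672423, minus strand, mm10) shares its coding sequence with *Eif4a-ps4* (chr1:60703932-60705149, plus strand). Over the 1218 coding bases the copies differ at 1 position and are 99.9% identical, and 1069 of the 1144 stretches of 75 bases in the coding sequence, the length of a read, occur in both. *Eif4e* (chr3:138526179-138559696, plus strand) and *Gm7327* (chrX:61785381-61786032, plus strand) differ at 7 of 649 aligned coding bases, and 32.8% of the 75-base coding stretches are shared. Over all annotated transcripts, with their untranslated parts, the share found in any other gene is 3.1% of stretches for *Eif4e* and 25.4% for *Eif4a1*. The sequences printed are 75 bases from a coding exon of each gene and the matching bases of its pseudogene, chosen because they hold the most differences of any such stretch, with differing bases in capitals. They were read from GENCODE M21 transcripts on GRCm38, which is mm10. The *Eif4a1* stretch lies at chr11:69668679-69668753 in exon 6 and the *Eif4a-ps4* stretch at chr1:60704446-60704520. The *Eif4e* stretch lies at chr3:138555390-138555464 in exon 8 and the *Gm7327* stretch at chrX:61785918-61785992.
Eif4a1: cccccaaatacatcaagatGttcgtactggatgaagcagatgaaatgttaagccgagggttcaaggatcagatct
Eif4a-ps4: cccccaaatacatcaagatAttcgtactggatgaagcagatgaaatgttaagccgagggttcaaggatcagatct
Eif4e: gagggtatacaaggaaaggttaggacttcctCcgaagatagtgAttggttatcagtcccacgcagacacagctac
Gm7327: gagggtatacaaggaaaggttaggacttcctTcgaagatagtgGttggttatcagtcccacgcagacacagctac
Of the other members, *Eif4a2* shares at least 20 such stretches with counted genes: *Gm2999*, *Gm26447* and *Rfc4*, the last of which overlaps the end of *Eif4a2* on the opposite strand. The remaining 7 members share fewer than 20 with any counted gene.

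The libraries held between 56134770 and 62628940 estimated counts. Levels are given as CPM, counts relative to library sizes scaled with edgeR's TMM method. *Ror2* was at 38.2, 36.2 and 36.7 CPM in control libraries 1, 2 and 3, and at 27.9, 28.1 and 26.3 CPM in the mutant libraries. The groups did not overlap, and the level fell by 26.0% (log2 fold change -0.43, SE 0.08, adjusted p = 0.013). The labelled tissue is dental pulp, but transcripts of enamel matrix genes made up a large share of every library. *Amelx*, *Ambn* and *Enam*, which mark ameloblasts, took 17.3% to 18.9% of counts in controls and 18.6% to 23.7% in mutants. *Amelx* alone took 9.15% to 9.97% in controls and 12.6% to 15.1% in mutants. *Enam* went the other way, at 18314 to 21230 CPM in controls and 9922 to 16604 CPM in mutants, and *Ambn* overlapped. The summed level of 10 dental mesenchyme markers was 361 to 440 CPM in controls and 388 to 446 CPM in mutants. Of these, 1 marker was called higher, while the median log2 fold change was -0.21, 4 markers had an unadjusted p under 0.05 and DESeq2 called 4. None of the 10 markers of dental epithelium was called by edgeR at an adjusted p under 0.05, while 5 had an unadjusted p under 0.05 and DESeq2 called 3. Their sum ran from 171870 to 192136 CPM in controls and from 185325 to 255690 CPM in mutants. Markers of skeletal muscle were low in mutants, with 8 of 10 called lower and sums of 13.4 to 44.6 CPM in controls and 4.74 to 5.44 CPM in mutants. Erythroid markers summed to 784 to 1331 CPM in controls and 245 to 942 CPM in mutants, and 2 of 7 were called lower. Odontoblast markers summed to 3777 to 9690 CPM in controls and 3435 to 7850 CPM in mutants, and were lowest in control library 1 and mutant library 2, and none of the 6 was called by edgeR or DESeq2 or had an unadjusted p under 0.05. Leukocyte markers summed to 88.4 to 103 CPM and 84.1 to 105 CPM, and endothelial markers to 219 to 287 CPM and 222 to 271 CPM, in controls and mutants respectively, with 1 marker called in each list. Mutant library 2 stood apart from the others of its group. The chi-square statistic per gene was 244 and 197 between it and mutant libraries 1 and 3, and 56.2 between those. The pairs of control libraries were at 112, 137 and 155. *CT010467.1* took 9.41% of the counts of mutant library 2 against 2.32% and 2.55% in mutant libraries 1 and 3. That gene took 5.19%, 6.75% and 1.17% of the control counts. No marker in the table was at 0 in all libraries. The part of these cell types in the results that follow was not tested, and in bulk tissue fewer cells of a type and less RNA per cell cannot be told apart.

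*Eif4e* was lower in the mutants and was the 1 member of 10 that passed the test, at an adjusted p under 0.05 over all genes. Of the 19330 genes tested, 20.2% passed, so the share of members called was below the background. The other 9 members did not pass. Of all 10, 7 had a negative and 3 a positive log2 fold change, and the median was -0.15, against 0.01 over all genes tested. The groups did not overlap for 5 members, *Eif4e*, *Eif4e2*, *Eif4g1*, *Eif4g2* and *Eif4b*, where 44.7% of all genes had groups that did not overlap. At an unadjusted p under 0.05, 2 members passed, *Eif4e* and *Eif4e2*, against 38.3% of all genes. Without control library 1 and mutant library 2, a choice made after seeing the data, 3 members were called, *Eif4e* lower and *Eif4e2* and *Eif4b* higher, and 4576 genes or 23.6% of all genes tested were called in that fit. The plot of levels by library shows all 60 values.

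**Figure D1:**
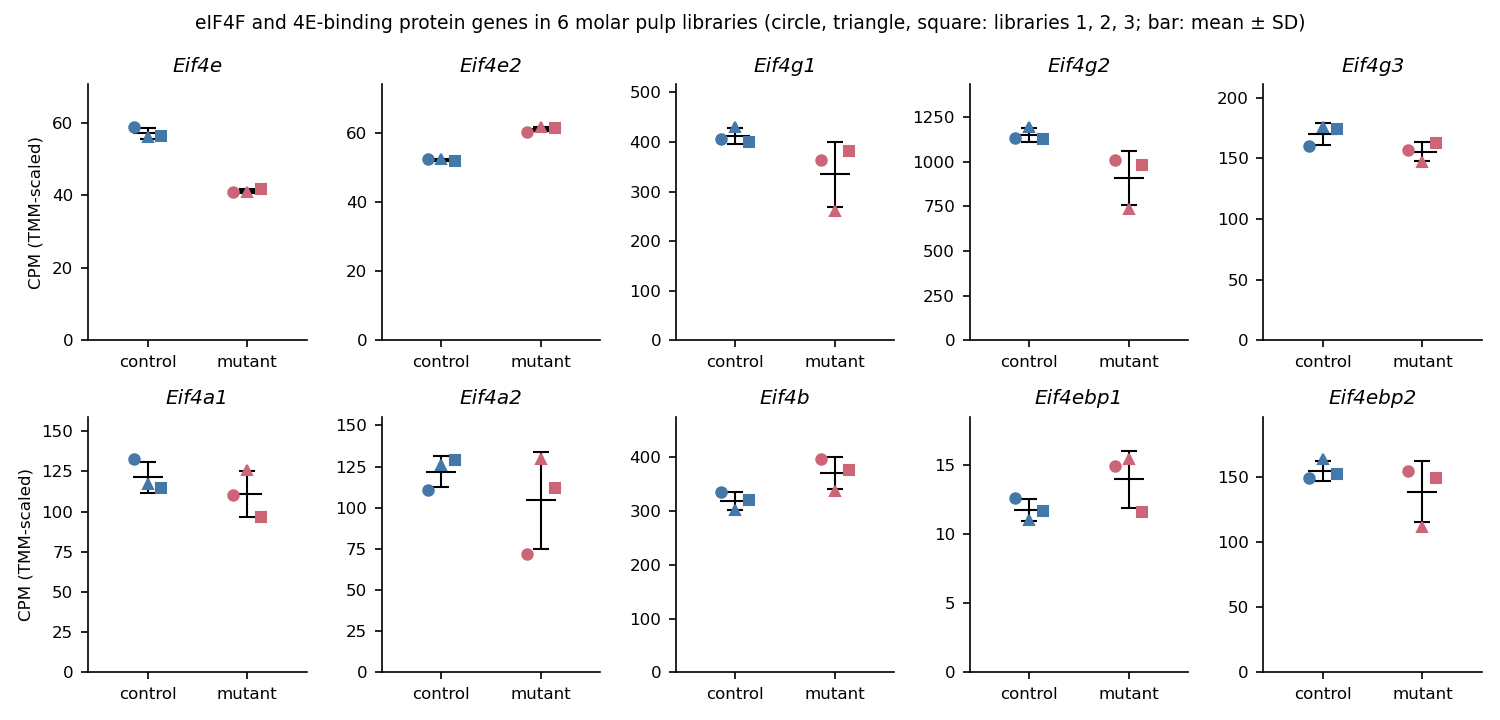
TMM-scaled CPM of the 10 genes in each library (vertical axes start at 0; symbols mark libraries 1, 2 and 3 of a group, and the bar is the mean ± SD, n = 3). For *Eif4e* the mutant libraries sit between 40.8 and 41.7 CPM, below all controls, and for *Eif4g1* and *Eif4g2* mutant library 2 lies lowest.

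*Eif4e* encodes the cap-binding subunit. Its level was 58.8, 56.1 and 56.4 CPM in controls and 40.9, 40.8 and 41.7 CPM in mutants. The lowest control thus stood well above the highest mutant, and within each group the libraries lay close together. The level fell by 27.9% (log2 fold change -0.47, SE 0.08, 95% confidence interval -0.66 to -0.29, adjusted p = 0.0082). With the counts of *Gm7327* added, the levels were 71.2, 68.1 and 68.4 CPM in controls and 54.7, 53.2 and 58.4 CPM in mutants. The groups still did not overlap and the difference was smaller (log2 fold change -0.32, SE 0.08, adjusted p = 0.033). The call was lost without control library 3 (log2 fold change -0.49, adjusted p = 0.055) and with an offset for the GC content of the genes in each library (log2 fold change -0.27, adjusted p = 0.067).

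*Gm7327* itself was at 12.4, 12.0 and 12.0 CPM in controls and at 13.7, 12.4 and 16.7 CPM in mutants. Its log2 fold change of 0.23 (SE 0.13) did not pass the test (adjusted p = 0.23). *Eif4e* therefore held 82.6%, 82.3% and 82.4% of the summed counts of the pair in controls, and 74.8%, 76.8% and 71.4% in mutants. The shared reads of the copies cannot be told apart, so the fall of the sum is the value that does not depend on how they were divided.

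*Eif4e2* encodes the cap-binding homologue 4EHP, which does not bind eIF4G and acts in repression of translation. It was at 52.4, 52.3 and 51.9 CPM in controls and 60.3, 61.7 and 61.3 CPM in mutants. The controls lay within 1 CPM of each other and all mutant libraries were above them. The log2 fold change of 0.23 (SE 0.08, 95% confidence interval 0.05 to 0.41) did not pass the threshold (adjusted p = 0.072).

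Among the scaffold genes, *Eif4g1* encodes the main eIF4G. It was at 407, 430.1 and 399.9 CPM in controls and at 364, 259.8 and 382 CPM in mutants. All mutant libraries were below the controls, and library 2 was far below the other two. The log2 fold change was -0.30 (SE 0.16, 95% confidence interval -0.66 to 0.06, adjusted p = 0.19), and -0.14 without mutant library 2 (adjusted p = 0.29). *Eif4g3*, the paralog that forms the same kind of scaffold, was at 159.8, 176 and 174 CPM in controls and at 157, 147 and 163 CPM in mutants. The groups overlapped, and the log2 fold change was -0.13 (SE 0.10, adjusted p = 0.36).

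*Eif4g2* encodes DAP5, a homologue that lacks the eIF4E-binding region and serves initiation without eIF4E. It had the highest CPM of the members, with 1131, 1195 and 1126 CPM in controls and 1008, 735 and 982 CPM in mutants. Here too the groups did not overlap and mutant library 2 was lowest. The log2 fold change was -0.34 (SE 0.15, 95% confidence interval -0.69 to 0.003, adjusted p = 0.13), and it turned to 0.10 (adjusted p = 0.52) with an offset for GC content and transcript length. Without mutant library 2 it was -0.20 (adjusted p = 0.16).

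Of the helicase genes, *Eif4a1* was at 132, 117 and 114 CPM in controls and at 110.2, 126 and 96.8 CPM in mutants, with overlapping groups and a log2 fold change of -0.13 (SE 0.12, adjusted p = 0.46). *Eif4a-ps4* held more counts than the gene, at 262, 228 and 223 CPM in controls and 296, 280.2 and 299 CPM in mutants. All mutant libraries were above the controls for the pseudogene, with a log2 fold change of 0.30 (SE 0.11, adjusted p = 0.085). The share of the pair's counts that was assigned to *Eif4a1* was 33.6%, 33.9% and 33.9% in controls and 27.1%, 31.0% and 24.5% in mutants.

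Summed with *Eif4a-ps4* and the minor sequence-sharing genes *Gm22988* and *Gm5513*, *Eif4a1* was at 394, 346 and 337 CPM in controls and at 406, 407 and 396 CPM in mutants. The sign was then the opposite of that of the gene alone, the groups no longer overlapped, and the difference did not pass the test (log2 fold change 0.17, SE 0.11, 95% confidence interval -0.09 to 0.42, adjusted p = 0.30). No direction can be given for *Eif4a1*.

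**Figure D2:**
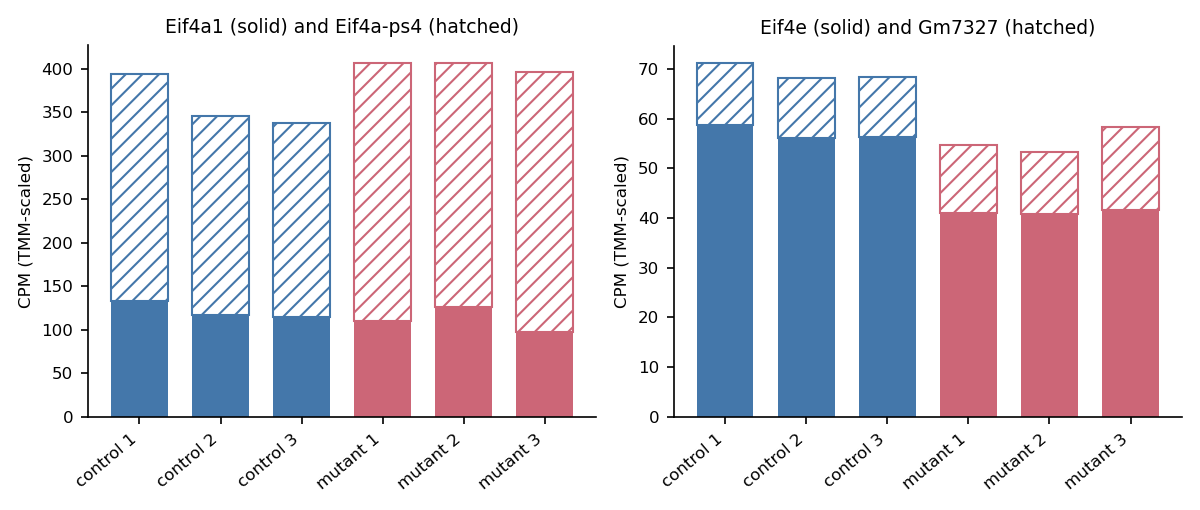
Stacked TMM-scaled CPM in the 6 libraries of *Eif4a1* with *Eif4a-ps4* (left) and *Eif4e* with *Gm7327* (right), with the gene solid and the pseudogene hatched. The gene is the smaller part of the left bars, at 24.5% to 33.9%, and the larger part of the right bars, at 71.4% to 82.6%.

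*Eif4a2*, the second helicase paralog, was the most variable member among the mutants. Its level was 111, 126 and 129 CPM in controls and 71.7, 129 and 112 CPM in mutants. Mutant library 1 was far below all others, and mutant library 2 was above every control. The log2 fold change was -0.22 (SE 0.20, adjusted p = 0.44), and with the GC offset it was 0.06. *Gm2999*, a pseudogene of *Eif4a2*, was at 11.8, 12.0 and 13.0 CPM in controls and 6.53, 7.07 and 9.88 CPM in mutants, and was called lower (log2 fold change -0.64, SE 0.17, adjusted p = 0.032). Adding its counts and those of *Gm26447* and *Rfc4* left *Eif4a2* at a log2 fold change of -0.24 (SE 0.19, adjusted p = 0.37).

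*Eif4b*, which encodes the cofactor of the helicase, was at 335, 301 and 319 CPM in controls and 395, 337 and 376 CPM in mutants. The lowest mutant library was just above the highest control. The log2 fold change was 0.22 (SE 0.11, 95% confidence interval -0.04 to 0.47, adjusted p = 0.19).

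The inhibitors of the complex did not pass the test. *Eif4ebp1* was at 12.6, 11.0 and 11.6 CPM in controls and 14.9, 15.4 and 11.6 CPM in mutants. Mutant library 3 lay within the control range while the others were above it, and the log2 fold change was 0.25 (SE 0.14, 95% confidence interval -0.07 to 0.56, adjusted p = 0.22). *Eif4ebp2* was at 149, 163 and 152 CPM in controls and 155, 112 and 149 CPM in mutants. The groups overlapped with mutant library 2 lowest, and the log2 fold change was -0.16 (SE 0.14, adjusted p = 0.42), and -0.017 without mutant library 2 (adjusted p = 0.90).

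The fold changes of all genes went with base composition. GC content was taken as the mean over the annotated transcripts of a gene. Over the 19330 genes tested, Spearman's rho of the log2 fold change with GC content was 0.32. With the length of the longest coding transcript it was -0.30. These are correlations across genes, which are not independent replicates. *Eif4e*, *Eif4g2* and *Eif4a2* had the lowest GC contents of the members, at 44.5%, 43.3% and 41.8%, against 49.7% to 55.4% for the other 7. With the GC offset their log2 fold changes moved to -0.27, -0.11 and 0.06, while *Eif4g1* moved to -0.45 (adjusted p = 0.11). Under that offset 0 of 10 members were called by edgeR, where 14.9% of all genes were, and 4 members had an unadjusted p under 0.05. DESeq2's Wald test on the counts without an offset called 2 members, *Eif4e* lower and *Eif4e2* higher, where it called 28.0% of all genes. Whether the GC trend stems from the libraries or from the tissue was not tested.

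**Figure D3:**
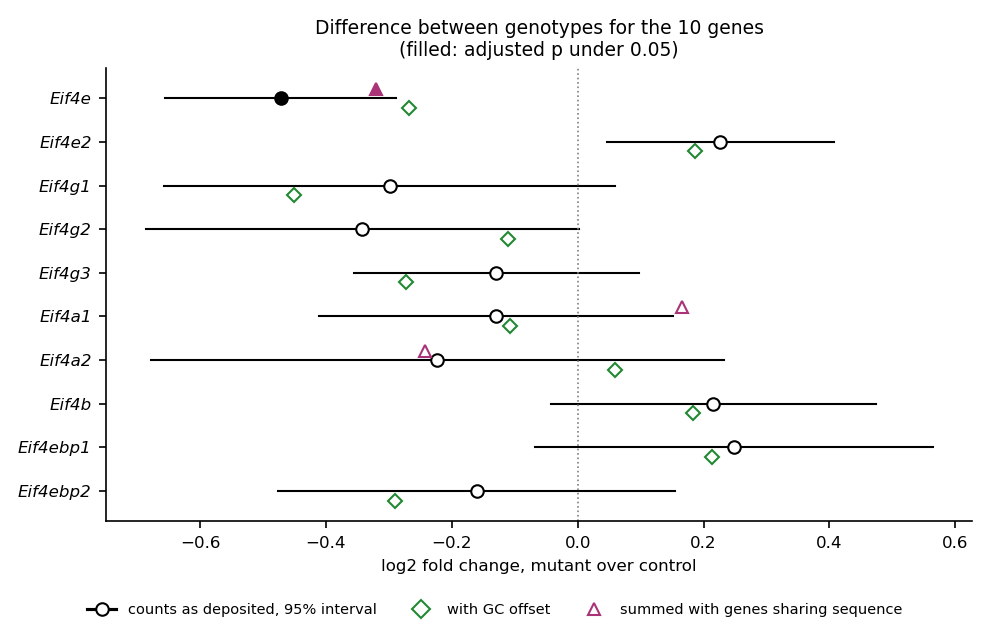
Log2 fold change of mutant over control for the 10 genes, with circles and 95% confidence intervals for the counts as deposited, diamonds for the GC offset and triangles for counts summed with sequence-sharing genes (filled symbols, adjusted p under 0.05). *Eif4e* is at -0.47, -0.27 and -0.32 by the 3 estimates, and *Eif4a1* changes sign when summed.

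To compare members with each other, CPM was divided by the length of each gene's longest coding transcript in kilobases. On this scale the control level was highest for *Eif4g2*, at 144 ± 4.82 CPM per kb (SD, n = 3), followed by *Eif4b* at 82.6 ± 4.32, *Eif4g1* at 73.1 ± 2.80 and *Eif4a1* at 68.4 ± 5.48 CPM per kb. The values of *Eif4g1* and *Eif4a1* overlapped between libraries. With its pseudogene included, *Eif4a1* came to 202 ± 17.3 CPM per kb, above *Eif4g2*. *Eif4a2* followed at 45.0 ± 3.52, *Eif4ebp2* at 26.8 ± 1.32, *Eif4g3* at 20.9 ± 1.09 and *Eif4e2* at 15.03 ± 0.0844 CPM per kb. *Eif4e* and *Eif4ebp1* were lowest, at 11.4 ± 0.295 and 5.87 ± 0.411 CPM per kb. In the mutants *Eif4e* stood at 8.24 ± 0.0949 and *Eif4ebp1* at 6.98 ± 1.04 CPM per kb, and their libraries still did not overlap. The mutant values of *Eif4g2* and *Eif4b* overlapped, at 114 ± 18.9 and 95.9 ± 7.69 CPM per kb, as did those of *Eif4g1* with *Eif4a1* and with *Eif4a2*, and of *Eif4ebp2* with *Eif4a2* and with *Eif4g3*. The order depends on the transcript taken for the length. On the second-longest coding transcript *Eif4e* came to 40.2 and *Eif4g3* to 27.3 CPM per kb in controls, in the reverse of the order above, with *Eif4ebp2* to 109, *Eif4b* to 206 and *Eif4g2* to 324 CPM per kb.

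Ratios of members inside a library do not depend on the scaling between libraries. The ratio of *Eif4e2* to *Eif4e* counts was 0.892, 0.933 and 0.920 in controls and 1.47, 1.51 and 1.47 in mutants. The homologue thus had fewer counts than *Eif4e* in every control and more in every mutant, but counts are not divided by transcript length. Per kb of the longest coding transcript, *Eif4e2* was above *Eif4e* in controls (15.03 against 11.4 CPM per kb) and mutants (17.6 against 8.24 CPM per kb). On the second-longest, *Eif4e2* was below *Eif4e* in controls (15.4 against 40.2 CPM per kb) and mutants (18.0 against 29.0 CPM per kb). The ratio was 1.62-fold higher in the mutants (log2 difference 0.70, SE 0.02), and the exact two-sided permutation test gave p = 0.1, the smallest that 3 against 3 libraries allow (0.4 after adjustment over 6 ratios). With *Gm7327* added to *Eif4e*, the ratio was 0.737, 0.768 and 0.758 in controls and 1.10, 1.16 and 1.05 in mutants, 1.46-fold higher (log2 difference 0.55). With the GC offset the log2 difference was 0.45, and the groups still gave the smallest p of the exact permutation test, 0.1.

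The ratio of the 4E-binding proteins to *Eif4e*, with *Eif4ebp1* and *Eif4ebp2* summed, was 2.75, 3.11 and 2.90 in controls and 4.14, 3.11 and 3.85 in mutants. Mutant library 2 lay inside the control range and the others above it. The log2 difference of 0.33 (SE 0.13) had an exact permutation p of 0.2 (0.4 adjusted), and with the GC offset it was 0.0045. *Eif4ebp1* made up a small part of the pair, with a ratio to *Eif4ebp2* of 0.0846, 0.0671 and 0.0765 in controls and 0.0961, 0.138 and 0.0775 in mutants. The groups overlapped and the exact permutation p was 0.2 (0.4 adjusted).

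The balance of the paralogs was also compared. The ratio of *Eif4a1* to *Eif4a2* was 1.19, 0.930 and 0.889 in controls and 1.54, 0.972 and 0.863 in mutants (exact permutation p = 0.7). Library 1 had the highest ratio in both groups. With sequence-sharing genes summed, the ratio was 3.10, 2.45 and 2.32 in controls and 4.95, 2.87 and 3.15 in mutants (exact permutation p = 0.2). The ratio of *Eif4g1* to *Eif4g3* was 2.55, 2.45 and 2.29 in controls and 2.32, 1.77 and 2.35 in mutants, and mutant library 2 was the lowest (exact permutation p = 0.3). The ratio of *Eif4g2* to *Eif4g1* stayed within 2.57 and 2.83 in all 6 libraries, with a log2 difference of -0.04 (SE 0.04, exact permutation p = 0.7), although both genes were low in mutant library 2. With the GC offset that log2 difference was 0.36.

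**Figure D4:**
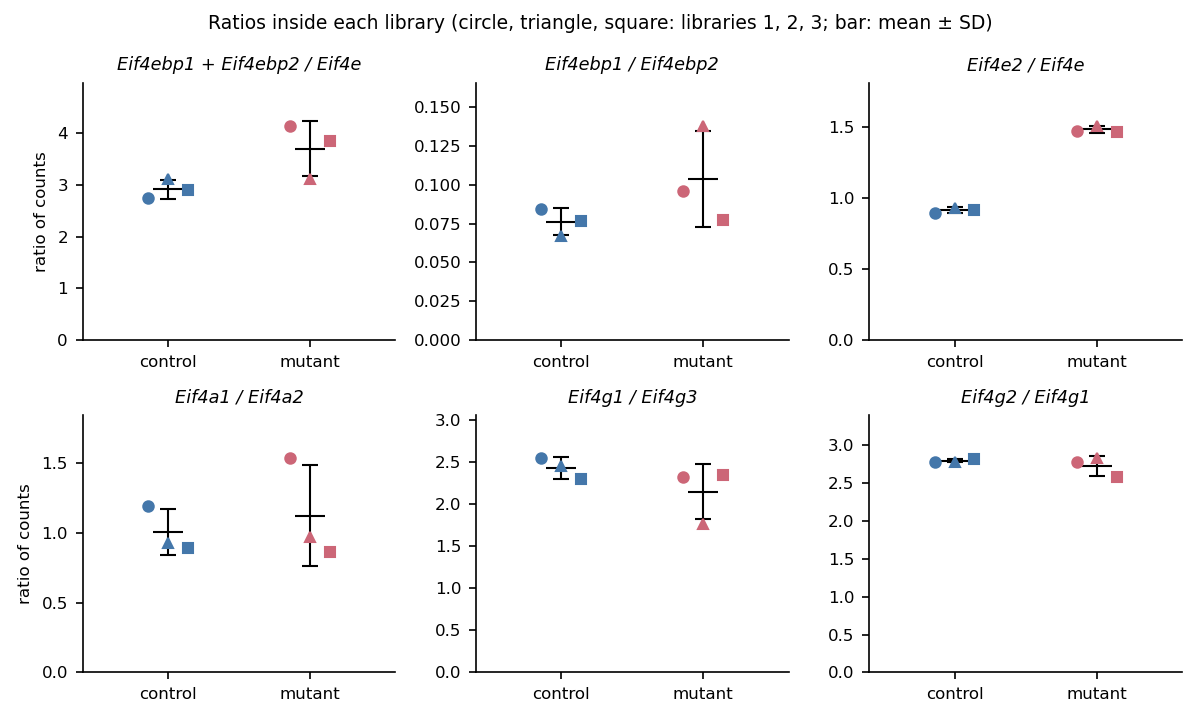
Ratios of counts between members inside each library (vertical axes start at 0; symbols mark libraries 1, 2 and 3 of a group, and the bar is the mean ± SD, n = 3). The groups separate only for *Eif4e2* over *Eif4e*, at 0.892 to 0.933 in controls and 1.47 to 1.51 in mutants.

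The genes whose log2 CPM followed that of *Eif4e* most closely over the 6 libraries were *Gm23119*, a small Cajal body RNA (Pearson's r = 0.9989), *Gprin1* (r = 0.9986) and *Cul1* (r = 0.9984). These values describe 6 libraries that fall into 2 groups, and r was above 0.95 for 541 of the other genes tested. The 3 genes had log2 fold changes of -3.47, -1.41 and -0.33.

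Of 17 partners of the complex, which include other cap-binding and helicase proteins, poly(A)-binding proteins and their regulators, 2 were called, 1 in each direction. *Gigyf1*, whose product works with 4EHP in translational repression, was at 27.5, 31.2 and 33.5 CPM in controls and 56.6, 104 and 45.1 CPM in mutants. All mutant libraries were above the controls and library 2 was highest (log2 fold change 1.16, SE 0.28, adjusted p = 0.025). Without control library 1 and mutant library 2 the log2 fold change of *Gigyf1* was 0.67 (adjusted p = 0.020). *Paip1*, whose product binds poly(A)-binding protein and stimulates translation, was called lower (log2 fold change -0.35, SE 0.10, adjusted p = 0.047), but kept its call in only 5 of 19 alternatives and moved to -0.06 with the GC offset. *Paip2b*, an inhibitor of poly(A)-binding protein, did not pass (adjusted p = 0.062), at -0.31 on the log2 scale, but was called with the GC offset (-0.40, adjusted p = 0.038) and in 4 of 19 alternatives in all. The median of the 17 was -0.06, and 11.8% were called against 20.2% of all genes.

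Of 22 kinases and upstream regulators of the complex, from mTOR complex 1 and its inputs to the S6, RSK and MNK kinases, 3 were called. *Rps6kb1*, which encodes p70S6K, was at 54.8, 54.8 and 55.7 CPM in controls and at 43.1, 38.1 and 42.2 CPM in mutants. The groups were well separated (log2 fold change -0.42, SE 0.09, adjusted p = 0.016). With the GC offset the call was lost (log2 fold change -0.20, adjusted p = 0.13). *Rps6kb2*, a second S6 kinase gene named here after its values were seen, went the other way. It was at 12.5, 10.9 and 12.1 CPM in controls and at 16.4, 30.4 and 15.6 CPM in mutants. It did not pass (log2 fold change 0.81, SE 0.25, adjusted p = 0.0504). *Rps6ka3*, which encodes the kinase RSK2, was lower (log2 fold change -0.61, SE 0.17, adjusted p = 0.039), and *Mknk2*, which encodes an eIF4E kinase, was higher (log2 fold change 0.29, SE 0.09, adjusted p = 0.048). With the GC offset these were at -0.45 (adjusted p = 0.077) and 0.08 (adjusted p = 0.54). The median of the 22 was 0.02, and 13.6% were called against 20.2% of all genes.

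Of 14 genes for subunits of eIF3, the factor that joins eIF4G to the small ribosomal subunit, 2 were called, both higher, where 10.4% of all genes were called higher. *Eif3h* was at 147, 121 and 128 CPM in controls and 185, 217 and 199 CPM in mutants (log2 fold change 0.60, SE 0.12, adjusted p = 0.013). *Eif3f* was at 217, 191 and 199.8 CPM in controls and 304, 301 and 280.2 CPM in mutants (log2 fold change 0.54, SE 0.11, adjusted p = 0.013). Both kept their sign in all 19 alternatives and their call in 16 of them. *Eif3g*, the next by p-value, was not called at 0.32 on the log2 scale (adjusted p = 0.054). The median of the 14 was 0.11.

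Of 17 other initiation factors, 7 were called, 5 higher and 2 lower, against 10.4% and 9.84% of all genes. *Eif2b2* and *Eif2b4* encode subunits of eIF2B, which reloads eIF2 with GTP. *Eif2b2* was at 28.3, 26.4 and 26.4 CPM in controls and 37.6, 39.3 and 36.2 CPM in mutants (log2 fold change 0.48, SE 0.09, adjusted p = 0.010). The log2 fold change was 0.45 for *Eif2b4* (SE 0.10, adjusted p = 0.021), and for *Eif6*, whose product keeps the ribosomal subunits apart, it was 0.43 (SE 0.10, adjusted p = 0.022). With the GC offset *Eif2b2* was still called (log2 fold change 0.30, adjusted p = 0.044), while *Eif2b4* and *Eif6* were not (both log2 fold changes 0.26, adjusted p = 0.088 and 0.080). The other called genes, named here after their values were seen, were *Eif5b* and *Eif1b*, which were higher, and *Eif1ax* and *Eif2s1*, which were lower. In this order they kept their calls in 12, 8, 5 and 10 of 19 alternatives. With the GC offset *Eif5b* was called (log2 fold change 0.58, adjusted p = 0.0070). *Eif1b*, *Eif1ax* and *Eif2s1* then lost their calls, at log2 fold changes of 0.23, -0.29 and -0.11 (adjusted p = 0.0998, 0.057 and 0.41). The median of the 17 was 0.01. Without control library 2 or control library 3, none of the partners, kinases, eIF3 subunits or other factors was called by edgeR. In those fits 2 to 7 genes of a list had an unadjusted p under 0.05. The number called among all genes fell as well, from 3906 to 910 and 872.

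**Figure D5:**
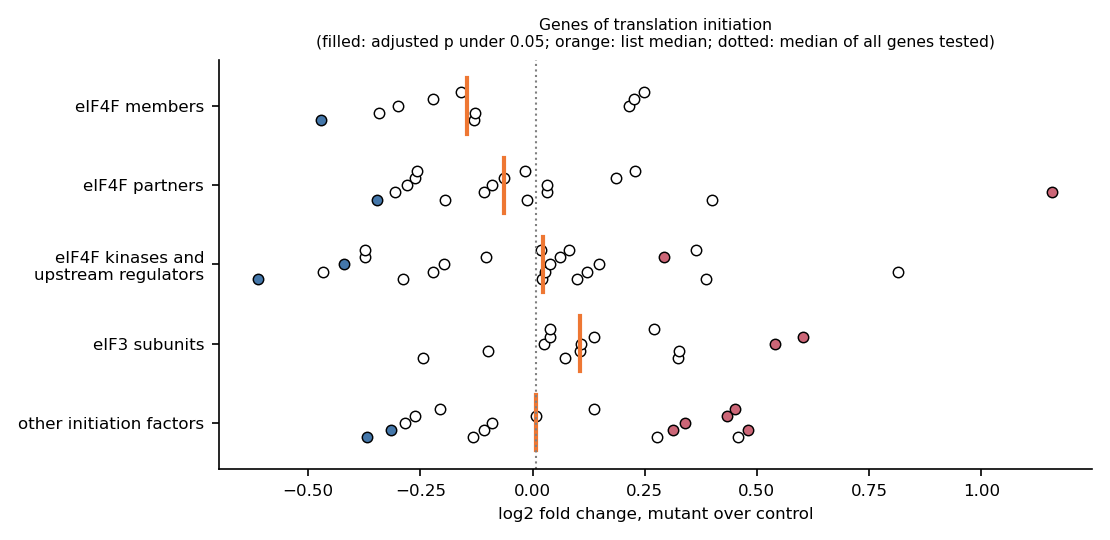
Log2 fold change of mutant over control for the genes of each list, 1 point per gene (filled, adjusted p under 0.05; blue lower, red higher; orange bars, list medians; dotted line, median of all genes tested). The medians run from -0.15 for the eIF4F members to 0.11 for the eIF3 subunits, and the 4 other lists hold 2, 3, 2 and 7 called genes.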

How the data were processed

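RNA-seq libraries of dental pulp from 3 *Ror2fl/fl* control and 3 *Osr2-Cre;Ror2fl/fl* mutant samples were analyzed, grouped by the genotype in the labels. The authors deposited estimated counts per gene without normalization. The methods name TopHat 2 and the mm10 genome for reads of 75 cycles, while the submitters' processing notes name STAR 2.6.1d and Partek. How reads that match several genes were divided, the use of strand and the annotation are not given in the sources used here. A table of normalized signal, also deposited, equals the estimated counts plus 1 multiplied by a factor for each library and is not divided by length. A further 6 columns of the count table that the labels do not assign were not used. Some of these are coded WT with numbers in the series of the mutants, and others OR in that of the controls.

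Estimated counts were rounded, filtered with filterByExpr, scaled by TMM and compared with edgeR's quasi-likelihood test (edgeR 4.0.16, R 4.3.3) without a block. P-values were adjusted by the Benjamini-Hochberg method over 19330 genes, with a threshold of 0.05. SEs of genes are the absolute log2 fold change over the square root of F. For ratios the SE is the square root of the summed group variances of the log2 ratio, each divided by the number of libraries. Ratios were compared by exact permutation tests. Depth was 56134770 to 62628940 counts, and the members had at least 639 counts in each library. Genes sharing at least 20 stretches of 75 bases in GENCODE M21 transcripts were also summed. Offsets for GC content and length were lowess fits per library (span 0.3). Alternatives also used DESeq2 1.42.0 and limma 3.58.1, other scalings and filters, a block for the sample index, and fits without each library in turn. The test was also run on simulated counts with less spread between replicates than these data have, which does not show how it performs here.

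The members and gene lists were chosen with earlier results of these data known. All members are named, together with *Ror2*, the 3 genes of lowest p-value from each other list, the 3 genes most similar to the member with the smallest p-value, and the genes summed with members. Protein sequences were not used here.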

Additional observations from a re-analysis of the deposited data

How the results depend on the processing

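*Eif4e* kept its sign in all 19 alternatives, with log2 fold changes from -0.49 to -0.15 and adjusted p-values from 7.0e-06 to 0.32, and was called in 15. The 4 that lost the call were the GC offset, the GC and length offset (-0.15), the replicate block with GC offset (-0.27) and leaving out control library 3. The sign was also kept in all 19 for *Eif4e2*, *Eif4g1*, *Eif4g3*, *Eif4b*, *Eif4ebp1* and *Eif4ebp2*, called only for *Eif4e2* in 2 and *Eif4b* in 1. *Eif4a1* turned to 0.17 when summed, *Eif4a2* to 0.060, 0.024 and 0.016 with the GC offset, the GC and length offset and the replicate block with GC offset, and *Eif4g2* to 0.10 with the GC and length offset. The number of members called was 2 by DESeq2, 0 with the 3 offsets named, 3 without control library 1 and mutant library 2, and 0 to 1 leaving out single libraries. Where a list had none called by edgeR, 1 to 7 of its genes had an unadjusted p under 0.05.

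Same-index deviations correlated at -0.10, -0.08 and -0.004, and those of different index at -0.04 to 0.10. With 3 libraries per group these values cannot settle whether the sample index pairs the libraries. The replicate block gave 2013 calls among all genes, 1 partner, 0 kinases and 1 other factor. The replicate block with GC offset gave 1373, 1, 0 and 2, and 0 eIF3 subunits. Leaving out single libraries gave 872 to 5001 calls among all genes, 0 to 3 partners, 0 to 5 kinases, 0 to 3 eIF3 subunits and 0 to 10 other factors. The GC offset gave 0 kinases, 4 eIF3 subunits and 3 other factors, and the GC and length offset 1, 4 and 4. Partners called were 1 by library size alone, without the filter, with limma-trend on the normalized signal, and without the counts of *Amelx*, *Ambn*, *Enam* and *CT010467.1*. Kinases called were 6 by DESeq2, 5 with at least 1 CPM in at least 3 libraries and 5 without control library 1 and mutant library 2, where eIF3 subunits called were 5 and genes called in all were 4576. Other factors called were 4 by library size alone and without the filter.

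The log2 difference of *Eif4e2* to *Eif4e* was 0.55 summed, 0.45 with the GC offset, 0.67 without control library 1 and mutant library 2, and 0.68 to 0.71 leaving out single libraries. With the GC offset that of the 4E-binding proteins to *Eif4e* was 0.0045, of *Eif4a1* to *Eif4a2* -0.13 and of *Eif4g2* to *Eif4g1* 0.36. Leaving out single libraries, these ranged from 0.25 to 0.45, from -0.12 to 0.30 and from -0.065 to 0.0034, *Eif4ebp1* to *Eif4ebp2* from 0.19 to 0.60, and *Eif4g1* to *Eif4g3* from -0.26 to -0.056. The causes were not tested. The members had at least 639 counts in each library, and how depth and the number of libraries bear on the calls was not tested.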
